A study of Mus musculus with 18 samples.

Results

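Long non-coding RNAs (lncRNAs) that were abundant or differed with tumour, namely Lncenc1, AI506816, Malat1, Neat1, Meg3, H19, Kcnq1ot1, Snhg1 and Gas5, were described in the mouse, in endothelial cells sorted from wild-type C57BL/6 mice a few weeks old and in EO771, a mouse breast cancer line. These 9 RNAs were selected on their level and on their difference with tumour in these same endothelial libraries, and they make up 9 of the 13125 annotated lncRNA genes and 9 of the 55401 genes of the endothelial table. The 12 endothelial libraries formed 4 groups of 3: blood vessel endothelial cells of the mammary fat pad of mice without tumour (normal BECs, BEC normal in the plots), blood vessel endothelial cells of EO771 tumours grown in that fat pad (tumour BECs), high endothelial cells of lymph nodes of mice without tumour (normal HECs) and high endothelial cells of the nodes of tumour-bearing mice, labelled lymph node metastases (tumour HECs). High endothelial cells line the venules through which lymphocytes enter a lymph node, and they were sorted as PNAd+ cells, whereas the BECs were sorted as PNAd-. The other 6 libraries came from EO771 cells in culture, 3 with vehicle and 3 with 12-HETE, a lipid made by ALOX12, at a single dose and time. None of the 9 RNAs stands in the EO771 table of 22612 lines, so the values below are those of the endothelial cells. Tumour and normal BECs came from different tissues that were digested differently, and each tissue was that of its cell type only, so tumour, tissue and digestion cannot be told apart in BECs, nor cell type and organ between HECs and BECs. Nothing in the labels says that the 3 samples of a group came from separate animals, and the p-values measure the spread between those samples.

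LncRNAs are long transcripts that are not read into protein. Malat1 and Neat1 stay in the nucleus, where Malat1 gathers in splicing speckles and Neat1 is the scaffold of paraspeckles. Gas5 and Snhg1 carry small nucleolar RNAs (snoRNAs) in their introns, and their spliced RNA is held at low levels by nonsense-mediated decay. Meg3, H19 and Kcnq1ot1 are imprinted, that is, read from the copy of one parent, and Kcnq1ot1 silences neighbouring genes on that copy. Lncenc1 was described in embryonic stem cells, and no role is given here for AI506816.

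The deposited totals ran from 56410964 to 79357993 per endothelial library and from 17294591 to 18624179 per EO771 library. Low endothelial values came in steps of 3.61 to 3.74, so the 2 sets of totals are not alike in unit. Divided by the step, the endothelial totals ran from 1.52e+07 to 2.145e+07. The 10 endothelial markers summed to between 2538 and 3148 CPM (counts scaled to one total per library) in all 12 libraries, and the 7 HEC markers to between 1026 and 3126 in HECs against 43.0 to 79.0 in BECs. The 7 myeloid markers were highest in tumour BECs, at 1503 to 2024 CPM against 108 to 129 in normal BECs, 484 to 509 in normal HECs and 356 to 374 in tumour HECs. The 6 T cell markers summed to 22.2 to 40.8 CPM in tumour BECs and at most 0.163 elsewhere, and the 5 B cell markers to 8.35 to 11.0 and at most 0.925. The 7 epithelial markers summed to 19.95 to 93.6 CPM in tumour BECs, 3.61 to 6.92 in normal BECs and 27.9 to 34.1 in HECs. The 8 fibroblast and pericyte markers were highest in normal BECs, at 827 to 836 CPM against 11.1 to 121 elsewhere. The normal BEC libraries also held RNA of 4 Y-linked genes, Ddx3y, Eif2s3y, Kdm5d and Uty, whose normalised values summed to between 711 and 1041 against 0 to 20.4 in the other groups, although the methods describe female mice. Normal BECs therefore stand apart from their description, and all differences against them rest on these 3 libraries. In bulk samples, fewer cells that express a gene and less RNA per cell cannot be told apart.

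The name abundant held for 6 of the 9. Levels of different genes were compared per kilobase of exon and scaled to one total per library (TPM). By this measure AI506816 was the lncRNA with the highest mean level in tumour BECs, at 925 ± 28.7 TPM (SD, n = 3), and ranked 128 among the 55141 genes with a length. Gas5, Lncenc1, Neat1, Snhg1 and Malat1 reached group means of 228, 181, 146, 112 and 78.3 TPM in tumour HECs. Kcnq1ot1, H19 and Meg3 stayed at or below 0.854 TPM in all 12 libraries. The 5 lncRNA genes with the highest mean normalised value were AI506816, Neat1, Cct6a, Xist and Gas5, of which Cct6a is annotated as a processed transcript although its symbol is that of a chaperonin subunit. The 9 RNAs together made up 6.61 ± 0.183% of the per-length lncRNA signal in normal BECs and 15.1 ± 0.159% in tumour BECs.

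Of the 8 tested RNAs, 5 were past both thresholds (adjusted p under 0.05 and over 2-fold) higher in normal HECs against normal BECs, where 17.1% of all 18511 genes tested were called higher and 15.1% lower. In tumour HECs against tumour BECs 4 were higher and 1 lower, beside 11.2% and 10.7% of all genes. In tumour BECs against normal BECs 4 were higher, beside 12.4% and 10.8%, and in tumour HECs against normal HECs 1 was higher, beside 4.58% and 3.21%. The 8 were chosen with these libraries known, so nothing is read from their share. AI506816 and Malat1 lay just under 2-fold in normal HECs against normal BECs.

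**Figure D1:**
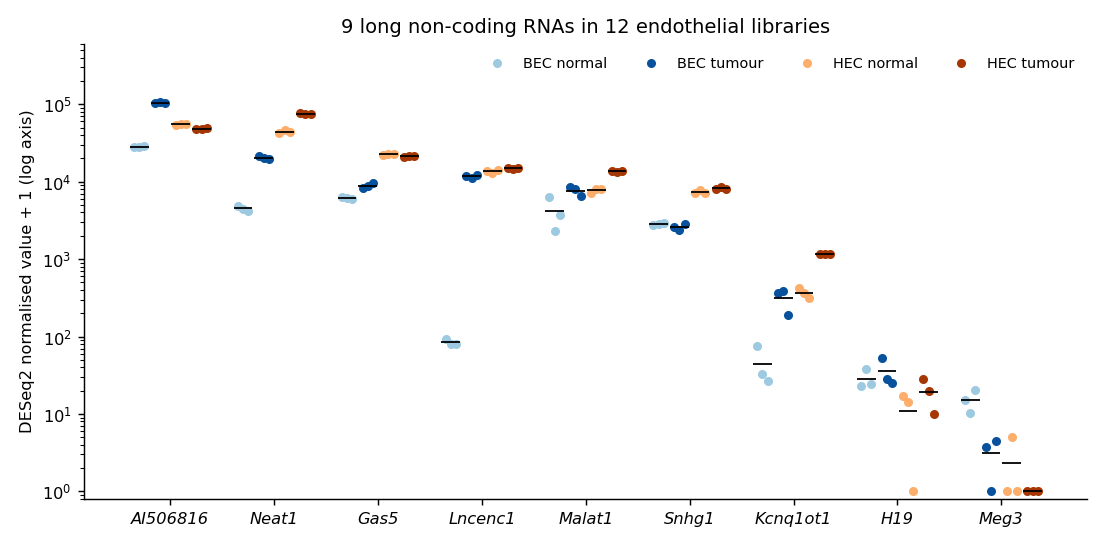
DESeq2 normalised values plus 1 (log axis) of the 9 RNAs, 1 point per library and a line at each group mean (n = 3). Lncenc1 lies between 80.02 and 92.6 in normal BECs and at or above 11060 in the other 9 libraries, while Kcnq1ot1, H19 and Meg3 lie lowest.

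Lncenc1 had the widest range of the 9. Its normalised values were 92.6, 80.02 and 80.25 in normal BECs, 11703, 11060 and 12326 in tumour BECs, 13884, 12951 and 14283 in normal HECs, and 15087, 14468 and 14984 in tumour HECs. All 9 libraries outside normal BECs lay far above the 3 of normal BECs, and the ranges of the 4 groups did not overlap. The mean was 138-fold higher in tumour BECs than in normal BECs, a log2 difference of 7.11 ± 0.11 (SE), and 162-fold higher in normal HECs than in normal BECs, at 7.34 ± 0.11. Between tumour HECs and normal HECs the log2 difference was 0.12 ± 0.07, and between tumour HECs and tumour BECs 0.34 ± 0.07. Per length, Lncenc1 moved from 0.960 ± 0.107 TPM in normal BECs to 181 ± 4.71 TPM in tumour HECs (SD, n = 3). Gm42047, another gene annotated as lncRNA, had 99.5 ± 23.5 in normal BECs and 8269 ± 801 in tumour BECs. The tumour differences of Lncenc1 belong to the contrast by which it was picked, and no test is given for them.

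Lncenc1 is a gene of chromosome 13 (chr13:97434970-97497007, plus strand, GRCm38) with 6 exonic blocks and no exon base shared with a protein-coding gene. Its nearest protein-coding neighbours are Enc1, an actin-binding protein gene 181936 bases away, and Gm10260, at 263065 bases. Enc1 differed by 0.00 ± 0.06 between normal HECs and normal BECs and by -0.44 ± 0.06 between tumour BECs and normal BECs, neither past 2-fold. Gm10260 was lower in tumour BECs, by -2.43 ± 0.24 (adjusted p = 6.64e-23, DESeq2), the opposite direction to Lncenc1. The 3 genes most like Lncenc1 over the 12 libraries were Tph2 (r = 0.999), Grm3 (r = 0.999) and Lrrc3b (r = 0.998), on log2 of the normalised value plus 1. All were listed at 0 in the 3 libraries of normal BECs and had group means between 259 and 881 in the other groups. The 12 points fall into the 4 groups, so each r mainly follows group means. The promoter of Lncenc1 is shown because the RNA was near its floor in a single group. It spans chr13:97434720-97435019 (GRCm38.p6, plus strand, RefSeq), from 250 bases before to 50 bases after the start, and capitals mark CCAAT on either strand.
Lncenc1: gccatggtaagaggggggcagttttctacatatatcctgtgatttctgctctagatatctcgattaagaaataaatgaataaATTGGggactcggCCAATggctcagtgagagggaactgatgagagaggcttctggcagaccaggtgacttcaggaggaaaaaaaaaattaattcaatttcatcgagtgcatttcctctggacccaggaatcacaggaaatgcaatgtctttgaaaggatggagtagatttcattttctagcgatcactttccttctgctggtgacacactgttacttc
The 2 CCAAT matches begin at -168 (reverse strand) and -155 (forward strand), where -1 is the base before the start. CCAAT was found in 37.4% of the 32851 promoters of that length. The other motifs searched on both strands were the TATA box (TATAAA), the GC box (GGGCGG), the E-box (CACGTG), the AP-1 site (TGANTCA), the cAMP response element (TGACGTCA) and an NF-kB type site, and none of these was found in this window.

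AI506816 changed with tumour in BECs and hardly in HECs. The normalised values were 28179, 28237 and 28908 in normal BECs, 102778, 105904 and 102768 in tumour BECs, 53306, 55707 and 55252 in normal HECs, and 48434, 47678 and 49497 in tumour HECs. The groups did not overlap, and tumour BECs were the highest, followed by normal HECs. Tumour BECs exceeded normal BECs by 1.87 ± 0.03 on the log2 scale, or 3.65-fold, whereas tumour HECs lay 0.17 ± 0.03 below normal HECs, at -0.17. The cell types were therefore ordered one way without tumour, with normal HECs 0.95 ± 0.03 above normal BECs, and the other way with tumour, with tumour HECs at -1.10 ± 0.03 against tumour BECs. The difference between the 2 tumour effects was not tested, since both entered the choice of this RNA. The myeloid, T cell and B cell markers were also highest in tumour BECs, and their part in the level of AI506816 was not tested.

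AI506816 lies on chromosome 5 (chr5:23698296-23712667, minus strand) in 6 exonic blocks, between Srpk2, a kinase of splicing factors 13679 bases away, and Pus7, a pseudouridine synthase gene 27981 bases away. Srpk2 was higher in tumour BECs than in normal BECs by 1.10 ± 0.08 (adjusted p = 1.55e-39, DESeq2) and higher in normal HECs than in normal BECs by 1.39 ± 0.08. Pus7 passed 2-fold in none of the 4 comparisons. Ipo13, an importin gene (r = 0.996), Il17ra, a receptor for interleukin 17 (r = 0.995), and Gpnmb, a glycoprotein gene of macrophages and other cells (r = 0.994), were most like AI506816. Gpnmb had group means of 2896 in normal BECs, 65642 in tumour BECs, 11745 in normal HECs and 11332 in tumour HECs. The promoter, chr5:23712618-23712917 (minus strand), is shown for comparison with that of Lncenc1, with GGGCGG in capitals on either strand.
AI506816: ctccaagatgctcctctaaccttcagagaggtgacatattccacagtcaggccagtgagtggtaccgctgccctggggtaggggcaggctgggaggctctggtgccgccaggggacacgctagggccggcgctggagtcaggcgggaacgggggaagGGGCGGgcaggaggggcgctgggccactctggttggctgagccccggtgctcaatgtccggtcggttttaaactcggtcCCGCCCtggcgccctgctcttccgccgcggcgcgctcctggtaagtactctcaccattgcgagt
It held 2 GGGCGG matches, at -93 (forward) and -14 (reverse), a motif found in 35.7% of all promoters, and 21 CpG pairs against a median of 7 over all promoters. The Lncenc1 promoter held 4 CpG pairs.

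Neat1 followed the same order of groups as Lncenc1, with a step between each pair of neighbours. Its normalised values were 4849, 4447 and 4227 in normal BECs, 21403, 20312 and 19781 in tumour BECs, 43106, 45858 and 44061 in normal HECs, and 76029, 74072 and 75629 in tumour HECs. Each group lay above the one before it without overlap. Tumour BECs stood 4.55-fold above normal BECs (log2 2.18 ± 0.06), normal HECs 9.83-fold above normal BECs (3.30 ± 0.06), tumour HECs 3.67-fold above tumour BECs (1.88 ± 0.06) and tumour HECs 1.70-fold above normal HECs (0.76 ± 0.06). The last difference was below 2-fold. Per length, Neat1 had 8.16 ± 0.755 TPM in normal BECs and 146 ± 2.63 TPM in tumour HECs, over 20771 exonic bases. A shorter Neat1 RNA shares the start of the long one, and the gene-level values cannot tell them apart.

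Malat1 differed less than its neighbour. The values in normal BECs were 6433, 2315 and 3670, the widest spread of the 6 abundant RNAs. Tumour BECs had 8448, 8081 and 6535, normal HECs 7037, 7965 and 8106, and tumour HECs 13718, 13436 and 13618. The 3 libraries of tumour HECs were the highest of all, tumour BECs and normal HECs overlapped, and the highest normal BEC library fell just below the lowest tumour BEC library. Normal HECs exceeded normal BECs by 0.90 ± 0.26 (adjusted p = 1.49e-03, DESeq2) and tumour HECs exceeded tumour BECs by 0.82 ± 0.26 (adjusted p = 4.50e-03), both below 2-fold. Without replicate 1 of normal BECs the first difference was 1.36 and passed 2-fold. The tumour differences were 0.89 ± 0.26 in BECs and 0.82 ± 0.26 in HECs.

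Malat1 (chr19:5795690-5802672) and Neat1 (chr19:5824708-5845478) lie next to each other on the minus strand of chromosome 19, yet the ratio of the 2 was not constant. Per length, Neat1 over Malat1 was 0.253, 0.646 and 0.387 in normal BECs, 0.852, 0.845 and 1.02 in tumour BECs, 2.06, 1.94 and 1.83 in normal HECs, and 1.86, 1.85 and 1.87 in tumour HECs. The ratio was at most 1.02 in the BEC libraries and at least 1.83 in the HEC libraries, and it did not separate tumour HECs from normal HECs. Frmd8, a protein-coding gene that lies 4224 bases from Neat1, differed by 0.14 ± 0.06 between normal HECs and normal BECs and by -0.56 ± 0.06 between tumour HECs and normal HECs. The 3 genes most like Neat1 were Gm10130, Zfp534 and Zfand2a, a stress-induced zinc finger gene, with r from 0.996 to 0.997. Those most like Malat1 were Atr, a kinase of the DNA damage response, Nufip2 and Smim13, with r from 0.977 to 0.983.

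**Figure D2:**
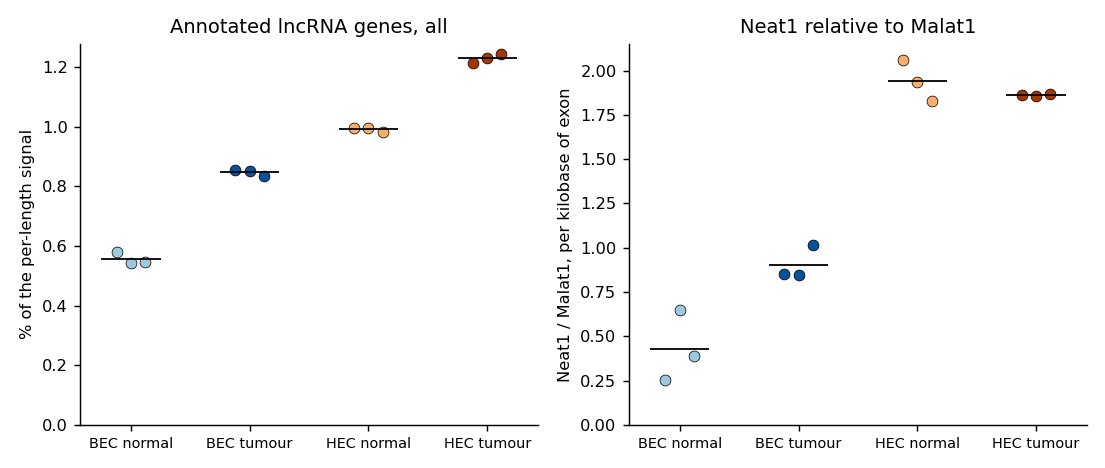
Left, share of the per-length signal taken by annotated lncRNA genes in each library, in percent; right, ratio of Neat1 to Malat1 per kilobase of exon. Points are libraries and lines group means (n = 3); the share steps up from 0.556% in normal BECs to 1.23% in tumour HECs, and the ratio separates BECs from HECs.

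Proteins of paraspeckles, the bodies that Neat1 scaffolds, did not follow Neat1 in number. Of 11 such genes tested, 0 passed both thresholds in normal HECs against normal BECs, 0 in tumour BECs against normal BECs, and 1 in tumour HECs against tumour BECs. At an unadjusted p under 0.05, 7 and 5 of the 11 were found in the first and second of these by DESeq2, and with edgeR 0 and 0 were called as well. In tumour HECs, Pspc1, a core paraspeckle protein, was higher than in tumour BECs by 1.34 ± 0.17 (adjusted p = 1.55e-14, DESeq2). Sfpq and Nono, on which paraspeckles depend, lay below their normal BEC means in normal HECs, by -0.79 ± 0.05 and -0.39 ± 0.04, while Neat1 was 9.83-fold above.

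Kcnq1ot1 was low in level and wide in range. Its normalised values were 74.1, 31.8 and 25.4 in normal BECs, 361, 387 and 191 in tumour BECs, 417, 364 and 313 in normal HECs, and 1162, 1158 and 1178 in tumour HECs. Tumour HECs stood apart from all others, tumour BECs and normal HECs overlapped, and normal BECs were lowest. It was the only one of the 8 tested RNAs past 2-fold in both tumour comparisons, at 2.82 ± 0.37 in BECs and 1.68 ± 0.35 in HECs. Normal HECs exceeded normal BECs by 3.05 ± 0.37 and tumour HECs exceeded tumour BECs by 1.90 ± 0.35. As a single annotated exon of 93092 bases (chr7:143203458-143296549, minus strand), Kcnq1ot1 lies within Kcnq1, a potassium channel gene on the other strand, and shares 121 exonic bases with it. Whether counting used the strand is not given in the sources used here, so unspliced Kcnq1 RNA and Kcnq1ot1 may be mixed. Kcnq1 itself was 1318 ± 7.24 in normal BECs, 121 ± 19.8 in tumour BECs, 643 ± 98.5 in normal HECs and 628 ± 34.9 in tumour HECs. In tumour BECs it was thus lower, by -3.44 ± 0.16 (adjusted p = 1.68e-102, DESeq2).

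The Kcnq1ot1 promoter lies in an imprinting control region inside Kcnq1. It is shown because this RNA differed in all 4 comparisons, with CCAAT in capitals (chr7:143296498-143296797, minus strand).
Kcnq1ot1: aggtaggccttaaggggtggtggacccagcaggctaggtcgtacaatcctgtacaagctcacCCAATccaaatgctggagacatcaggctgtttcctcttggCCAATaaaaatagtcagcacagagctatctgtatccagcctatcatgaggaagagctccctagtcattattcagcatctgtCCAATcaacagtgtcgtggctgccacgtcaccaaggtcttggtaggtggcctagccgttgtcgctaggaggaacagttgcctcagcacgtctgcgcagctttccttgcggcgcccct
It held 3 CCAAT matches on the forward strand, at -188, -148 and -67. Other genes of that imprinted domain were Cdkn1c, a growth inhibitor, and Slc22a18, a transporter. Cdkn1c had group means of 49.9 in normal BECs, 81.0 in tumour BECs, 264 in normal HECs and 191 in tumour HECs, and was higher in HECs both without tumour (2.40 ± 0.40) and with tumour (1.24 ± 0.39). Slc22a18 was higher in tumour BECs than in normal BECs by 2.83 ± 0.44. The genes most like Kcnq1ot1 were Zfp345 and Kbtbd8 (r = 0.988 each) and BC005537 (r = 0.986).

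H19 and Meg3 were hardly detected. H19 had normalised values of 22.0, 37.7 and 23.4 in normal BECs, 51.9, 27.1 and 24.4 in tumour BECs, 16.2, 13.2 and 0 in normal HECs, and 27.7, 18.7 and 8.85 in tumour HECs. Normal HECs lay below normal BECs without overlap, while the tumour and normal groups of each cell type overlapped, as did the tumour groups with each other. Normal HECs against normal BECs gave -1.50 ± 0.91 (adjusted p = 0.140, DESeq2; 95% interval -3.28 to 0.28) and tumour HECs against tumour BECs -0.90 ± 0.89 (adjusted p = 0.404; -2.64 to 0.84), neither past the threshold. Meg3 had 14.1, 9.41 and 19.3 in normal BECs, 2.78, 0 and 3.49 in tumour BECs, 0, 4.07 and 0 in normal HECs, and was listed at 0 in the 3 libraries of tumour HECs. Its mean was below 10, and it was the only one of the 9 not tested. The 3 libraries of normal BECs were the highest for Meg3, and those libraries also held the most RNA of fibroblast and pericyte markers, at 827 to 836 CPM, whose part in the Meg3 level was not tested.

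Like Meg3 but not H19, several imprinted genes that are often described with these RNAs were highest in normal BECs. Grb10, a growth inhibitor, had 11661 ± 1022 in normal BECs, 234 ± 61.8 in tumour BECs, 116 ± 6.15 in normal HECs and 102 ± 10.3 in tumour HECs. Mest fell from 15029 ± 512 in normal BECs to 3294 ± 116 in tumour BECs and was 1642 ± 275 in normal HECs. Dlk1, the protein-coding neighbour of Meg3, had 130 ± 25.5 in normal BECs and 0 in the 6 HEC libraries. In the other direction, Slc38a4 rose from 251 ± 55.9 in normal BECs to 1564 ± 31.4 in tumour BECs, and Ndn from 955 ± 74.03 to 4939 ± 212. Of 12 tested genes of this imprinted list, 4 were called higher and 4 lower in tumour BECs against normal BECs, beside 12.4% and 10.8% of all genes. In normal HECs against normal BECs 4 were higher and 6 lower, beside 17.1% and 15.1%. In tumour HECs against normal HECs, beside 4.58% and 3.21%, 0 were called in either direction by DESeq2, where 3 of the 12 had an unadjusted p under 0.05 and edgeR called 0. Peg13, an imprinted lncRNA, had 2511 ± 38.2 in normal BECs, 201 ± 34.4 in tumour BECs and about 16 in both HEC groups, at 16.5 ± 10.8 and 15.6 ± 4.83.

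Gas5 and Snhg1 separated the cell types and moved little with tumour. Gas5 had normalised values of 6346, 6144 and 6037 in normal BECs, 8202, 8779 and 9629 in tumour BECs, 22369, 22791 and 22965 in normal HECs, and 20934, 21664 and 21401 in tumour HECs. All 6 HEC libraries lay above all 6 BEC libraries. Normal HECs exceeded normal BECs by 1.88 ± 0.06 (adjusted p = 5.47e-201, DESeq2), or 3.68-fold, and tumour HECs exceeded tumour BECs by 1.27 ± 0.06 (adjusted p = 2.51e-92), or 2.41-fold. The tumour differences were 0.52 ± 0.06 in BECs and -0.09 ± 0.06 in HECs. Snhg1 had 2718, 2821 and 2950 in normal BECs, 2587, 2409 and 2836 in tumour BECs, 7065, 7838 and 7176 in normal HECs, and 8072, 8647 and 8044 in tumour HECs. The BEC groups overlapped and both lay below all HEC libraries. Normal HECs exceeded normal BECs by 1.38 ± 0.08 (adjusted p = 1.51e-67, DESeq2) and tumour HECs exceeded tumour BECs by 1.66 ± 0.08 (adjusted p = 2.13e-97). The tumour differences were -0.12 ± 0.08 in BECs and 0.17 ± 0.08 in HECs. The HEC and BEC libraries compared here also entered the tumour comparisons and the choice of both RNAs. Their p-values are therefore not a test independent of that choice.

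**Figure D3:**
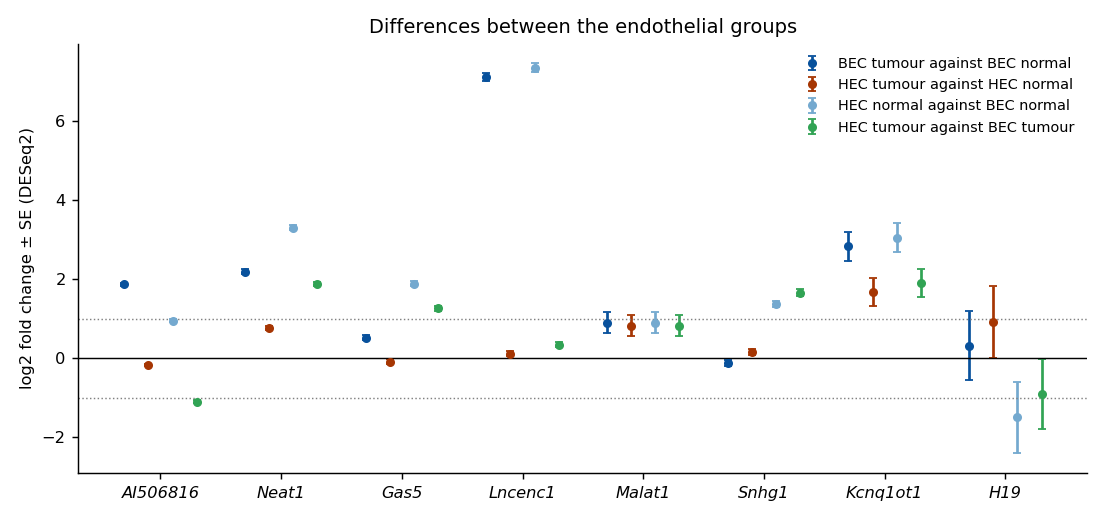
Log2 fold changes with standard errors (DESeq2, 3 libraries against 3) of the 8 tested RNAs in 4 comparisons, with dotted lines at 2-fold. Lncenc1 lies above 7 in both comparisons with normal BECs and near 0 in the others, and Gas5 and Snhg1 lie past 2-fold in the cell type comparisons only.

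The promoters of Gas5 and Snhg1 are shown because both RNAs moved with cell type. That of Gas5 is its second RefSeq start (chr1:161034916-161035215, plus strand) and that of Snhg1 is chr19:8723237-8723536 (plus strand). Capitals mark GGGCGG and, in Gas5, TGACGTCA, or, in Snhg1, TATAAA on the reverse strand.
Gas5: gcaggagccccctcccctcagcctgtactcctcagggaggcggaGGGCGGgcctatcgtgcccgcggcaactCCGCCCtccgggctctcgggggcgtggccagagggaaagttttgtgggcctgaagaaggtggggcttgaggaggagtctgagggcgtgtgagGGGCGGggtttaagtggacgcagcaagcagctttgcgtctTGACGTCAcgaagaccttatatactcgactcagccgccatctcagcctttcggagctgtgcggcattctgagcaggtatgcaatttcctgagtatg
Snhg1: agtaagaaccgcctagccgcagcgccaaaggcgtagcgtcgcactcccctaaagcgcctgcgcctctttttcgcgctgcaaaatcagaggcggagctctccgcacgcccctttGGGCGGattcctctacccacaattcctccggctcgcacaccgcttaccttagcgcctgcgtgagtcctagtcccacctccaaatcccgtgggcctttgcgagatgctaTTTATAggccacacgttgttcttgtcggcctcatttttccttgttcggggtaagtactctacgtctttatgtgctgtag
Gas5 held GGGCGG at -206, -178 (reverse) and -86 and TGACGTCA at -46, the latter found in 1.79% of all promoters. Snhg1 held GGGCGG at -137 and TATAAA at -29 (reverse), the latter found in 13.6%. At this second start Gas5 begins with C in a run of 5 pyrimidines, as do 2.51% of all promoters, whereas Snhg1 begins with C in a run of 3. The first Gas5 start begins with G, and its promoter held 5 GGGCGG matches and no TGACGTCA. Such a run of pyrimidines is a mark of RNAs whose translation is tied to growth signals. Of the 16 other snoRNA host genes with a promoter in the table, 2 had it, Snhg7 and Snhg8. The genes most like Gas5 were Cxcl10, a chemokine gene (r = 0.996), Gm16580 (r = 0.995) and Kctd4 (r = 0.993), and those most like Snhg1 were Plcd3 (r = 0.996), Fgg (r = 0.995) and Glycam1, a mucin-like gene of high endothelial cells (r = 0.994). Most of the snoRNAs within Gas5 and Snhg1 had a highest value of 1 in any library. Some lay above that, up to 293 for Gm22357 within Gas5. The values are therefore not taken as a measure of the snoRNAs themselves.

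The other snoRNA host genes were mostly higher in HECs as well. Of 16 tested, 11 were called higher (68.8%) and 1 lower in normal HECs against normal BECs, beside 17.1% and 15.1% of all genes, and the median log2 difference was 1.31 against 0.00 for all genes. In tumour HECs against tumour BECs, 13 were called higher (81.2%) and 2 lower, against 11.2% and 10.7% of all genes, with a median of 1.39. The lncRNA genes as a class shifted the same way. Of those tested, 36.5% and 25.4% were called higher in the 2 comparisons, with medians of 0.88 and 0.73. Zfas1, which hosts several snoRNAs of the C/D box kind, was higher by 2.20 ± 0.08 and 2.23 ± 0.08 in the 2 comparisons, from 2156 ± 60.0 to 9879 ± 210 without tumour and from 1586 ± 169 to 7417 ± 431 with tumour. Snhg8 was higher by 2.22 ± 0.10 and 1.14 ± 0.10, Snhg6 by 1.58 ± 0.10 and 1.75 ± 0.10, and Snhg15 by 1.40 ± 0.13 and 1.85 ± 0.12. Snhg18 went the other way, with 426 ± 42.9 in normal BECs, 51.2 ± 25.6 in tumour BECs, 1.27 ± 2.21 in normal HECs and 0 in tumour HECs. With tumour, fewer were called. In tumour BECs against normal BECs, 2 of the 16 were higher (Dancr and Snhg9) and 2 lower (Snhg14 and Snhg18). That is 12.5% in each direction, near the 12.4% and 10.8% of all genes. Snhg9 was low, at 17.6 ± 8.92 against 3.43 ± 3.06, and was not called with only the 6 libraries compared (adjusted p = 0.0841, DESeq2). In tumour HECs against normal HECs, 0 were higher and 1 was lower, beside 4.58% and 3.21% of all genes. The lower one was Snhg11, from 6.81 ± 6.59 to 0. Without replicate 3 of normal HECs it was not called (adjusted p = 0.0727, DESeq2). At an unadjusted p under 0.05 (DESeq2), 8 of the 16 differed between the HEC groups.

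**Figure D4:**
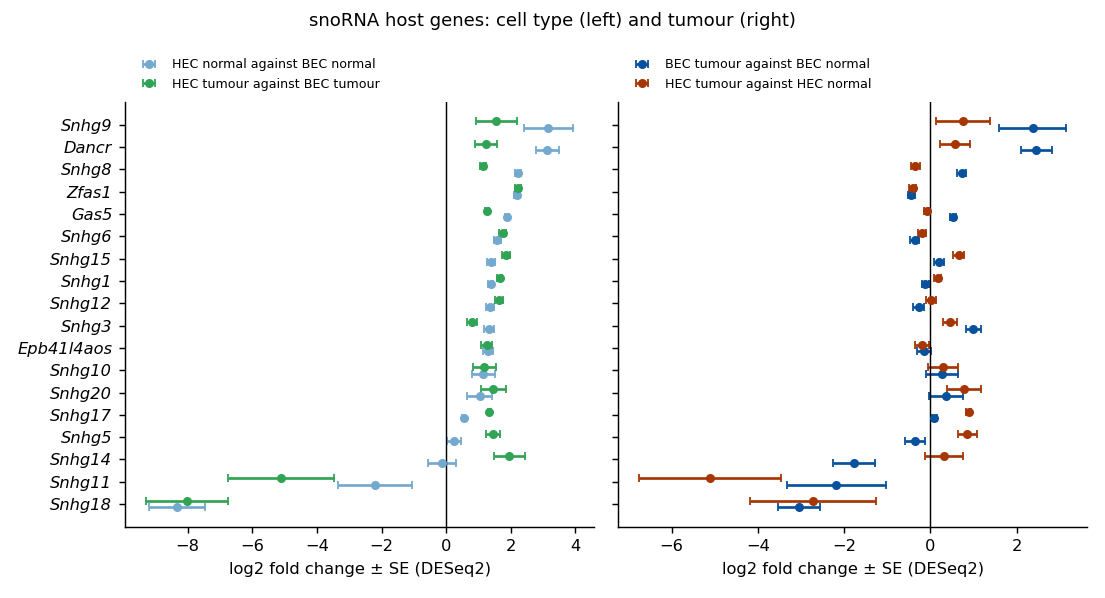
Log2 fold changes with standard errors (DESeq2, 3 libraries against 3) of 16 snoRNA host genes, Gas5 and Snhg1. Left, HECs against BECs without and with tumour; right, tumour against normal in each cell type; Zfas1 lies at 2.20 and 2.23 on the left, and Snhg18 is the farthest below 0 there.

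Nonsense-mediated decay removes the spliced RNA of several snoRNA hosts. Of 10 tested factors of that pathway, 1 was called higher in each of 3 comparisons, beside 17.1% of all genes in normal HECs against normal BECs, 11.2% in tumour HECs against tumour BECs and 12.4% in tumour BECs against normal BECs. Upf2 was higher in HECs without tumour (1.52 ± 0.24) and with tumour (1.05 ± 0.24), and Smg1 was higher in tumour BECs than in normal BECs (1.26 ± 0.20). Without replicate 3 of tumour BECs, Upf2 fell under 2-fold with tumour, at 0.87.

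The lncRNA genes as a class were called higher more often than lower in all 4 comparisons. Of 1943 tested, 709 (36.5%) were called higher and 153 (7.87%) lower in normal HECs against normal BECs, beside 17.1% and 15.1% of all genes. In tumour HECs against tumour BECs, 493 (25.4%) were higher and 57 (2.93%) lower, beside 11.2% and 10.7%. With tumour, 536 (27.6%) were higher and 111 (5.71%) lower in BECs, beside 12.4% and 10.8%. In HECs, 224 (11.5%) were higher and 14 (0.721%) lower with tumour, beside 4.58% and 3.21%. The median log2 differences of the class were 0.88, 0.73, 0.65 and 0.50 in that order, against 0.00 to 0.02 for all genes. Counting only the 1128 lncRNA genes that share no exon base with a protein-coding gene, 42.1% were higher in normal HECs than in normal BECs, 28.5% in tumour HECs than in tumour BECs, 30.3% in tumour BECs than in normal BECs and 9.84% in tumour HECs than in normal HECs. The class took 0.556 ± 0.0198% of the per-length signal in normal BECs, 0.847 ± 0.0105% in tumour BECs, 0.992 ± 0.00675% in normal HECs and 1.23 ± 0.0140% in tumour HECs (SD, n = 3), and the groups did not overlap. Among the lncRNAs of the tumour HEC comparison, 6330403L08Rik (1.78 ± 0.11), 2810402E24Rik (1.40 ± 0.10) and Gm4430 (1.72 ± 0.13) had the largest Wald statistics of those higher, and Trerf1 (-1.20 ± 0.09), BC051226 (-1.08 ± 0.16) and 2010204K13Rik (-1.10 ± 0.18) of those lower. Trerf1 bears the symbol of a transcription factor gene.

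Other named lncRNAs gave single examples. Mirt1 resembled Lncenc1, with 43.4 ± 11.4 in normal BECs, 2570 ± 150 in tumour BECs, 4900 ± 104 in normal HECs and 6441 ± 429 in tumour HECs. Platr14, a transcript of pluripotent cells as Lncenc1 is, was higher in normal HECs (4.19 ± 0.24) and in tumour BECs (3.65 ± 0.24) than in normal BECs. Mir17hg, host of a microRNA cluster, was higher in tumour HECs than in normal HECs by 1.51 ± 0.24 (adjusted p = 1.02e-08, DESeq2). Rian, a neighbour of Meg3, had 24.9 ± 4.94 in normal BECs and was listed at 0 in the 3 libraries of normal HECs.

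Several RNAs spread widely within the BEC groups, and others did not. In normal BECs, replicate 1 was the highest for Malat1 (155% of the group mean), Kcnq1ot1 (169%), Xist (137%), the RNA that coats the inactive X chromosome, and Tug1 (120%), and the same library had the highest mitochondrial share, 2.96% against 2.28% and 2.36%. In tumour BECs, replicate 3 was the lowest for Malat1 (85.0%), Kcnq1ot1 (61.0%), Xist (68.1%) and Tug1 (91.4%), and its mitochondrial share was the lowest of the 3, at 2.03%. Neat1 spread less, at 93.8% to 108% of the mean in normal BECs and 96.5% to 104% in tumour BECs. AI506816, Gas5 and Snhg1 varied by no more than 8.21% (CV) in any group. In tumour HECs the CV was at most 4.13% for the 7 RNAs above 100 in level. The part of the mitochondrial share in these levels was not tested. Xist averaged 11261 ± 3695 in normal BECs and 33737 ± 9535 in tumour BECs, higher by 1.58 ± 0.22 (adjusted p = 6.91e-12, DESeq2), and the Y-linked RNA in normal BECs given above stands beside that value.

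**Figure D5:**
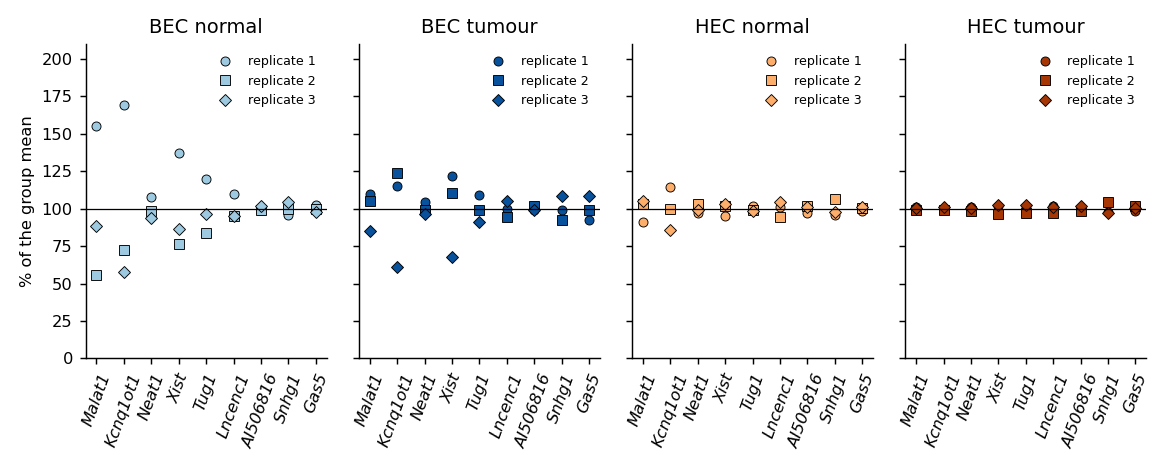
Each library's normalised value as a percentage of its group mean, for 9 lncRNAs in 4 groups (n = 3, replicates by symbol). Replicate 1 of normal BECs lies at 155% for Malat1 and 169% for Kcnq1ot1, and replicate 3 of tumour BECs at 61.0% for Kcnq1ot1.

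The EO771 table is mainly one of protein-coding genes. Of its lines, 31 carried a symbol annotated as lncRNA and 5 were tested, and 1 of these was lower with 12-HETE, 1810032O08Rik, by -1.62 ± 0.20 (adjusted p = 4.53e-14, DESeq2). In that comparison 2.38% of the 11602 genes tested were called higher and 7.79% lower. Of 11 paraspeckle genes and 10 decay factors tested, 0 were called in either direction by DESeq2, with 11 and 4 at an unadjusted p under 0.05 and 0 called by edgeR in each. All 11 paraspeckle genes had a log2 difference above 0, with a median of 0.36. Igf2r, of the imprinted list, was lower, at 107 ± 10.2 against 242 ± 32.4 (-1.18 ± 0.19). Of 12 mitochondrially encoded genes, 10 were higher with 12-HETE, a shift that enters the totals of these libraries.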

How the data were processed

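RNA was measured in 12 libraries of sorted mouse endothelial cells and 6 of EO771 cells. The authors aligned reads with STAR to GRCm38 and counted them with featureCounts. The endothelial table was deposited as estimated counts that need not be whole, and these were rounded before testing. Their low values pile up in steps above 1, so they are not plain read counts. The EO771 table was deposited as whole-number counts by gene symbol. The strand setting is not given in the sources used here, and labels and methods name different library kits. Genes with a mean of at least 10 were tested with DESeq2 1.42.0 in R 4.3.3 (Wald test, two-sided, Benjamini-Hochberg), separately for each table, and called at an adjusted p under 0.05 and over 2-fold. Normalised values are counts over DESeq2 size factors, and differences are log2 with standard errors. TPM was computed from merged exon lengths. The tests were also run on simulated whole-number counts with a single fixed spread for all genes. Those counts lack the steps of the endothelial values, so they do not show how the tests behave on them.

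The RNAs and gene lists were chosen with earlier results of these data known, so no p is given for the 9 RNAs in the tumour comparisons, nor in cell type comparisons for those chosen by them. The p-values given for Malat1, H19, Gas5 and Snhg1 between cell types are not independent of that choice. Named genes were up to 4 called members per list and comparison with the largest Wald statistics, the 5 lncRNAs of highest mean, the 3 lncRNAs of largest Wald statistic per direction, and the 3 genes of highest Pearson r with each RNA; other genes named were chosen after their values were seen. Alternatives were edgeR 4.0.16, other scaling, no filter, only the libraries compared, replicate numbers as a block and leaving out each library. Another used endothelial values divided by the step of the low values. A further one, chosen after seeing the data, kept lncRNA genes sharing no exon base with a protein-coding gene. RefSeq promoters (GRCm38.p6) were used, with no entry for Neat1 and H19. The symbols Nron, Rmrp, Aldoa and Mirt2 carry more than 1 identifier and were left out of the endothelial lists. Some genes of these lists are not reported here by name.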

Additional observations from a re-analysis of the deposited data

Results flagged for a closer look

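AI506816 and Gas5 were singled out on their normalised values. By these, every tumour library of one cell type moved one way and every tumour library of the other moved the opposite way. For AI506816 the log2 difference between tumour and normal was 1.87 in BECs and -0.17 in HECs. For Gas5 it was 0.52 in BECs and -0.0901 in HECs. With size factors from library totals the HEC value of Gas5 was -0.0161. Its mean TPM was 222 in normal HECs and 228 in tumour HECs, so its direction in HECs depended on the scaling. For AI506816 and for Gas5 the difference between the cell types was not tested.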

How the results depend on the processing

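Among the 8 tested RNAs and the list genes named by the Wald rule, no called difference changed direction. Nor did any uncalled difference of the 8 between cell types. Uncalled tumour differences of the 8 were not checked for a change of direction. One of these was H19 in BEC tumour against BEC normal, at 0.32. Its BEC tumour replicate 1 had 51.9, while replicates 2 and 3, at 27.1 and 24.4, lay below the BEC normal mean of 27.7. Among lncRNA genes without exon overlap (chosen after seeing the data), 88 were lower in HEC normal against BEC normal, 322 higher and 33 lower in HEC tumour against BEC tumour, 111 and 7 in HEC tumour against HEC normal, and 342 and 71 in BEC tumour against BEC normal, since fewer genes were tested. With no filter, 87 were lower in HEC tumour against BEC tumour, 25 in HEC tumour against HEC normal and 2 with 12-HETE; with only the 6 libraries compared, 26 were lower in HEC tumour against HEC normal. The cause was not tested. Leaving out 1 library gave 626 to 721 higher and 120 to 169 lower in HEC normal against BEC normal, 409 to 482 and 46 to 77 in HEC tumour against BEC tumour, 166 to 220 and 10 to 27 in HEC tumour against HEC normal (22 and 27 lower without HEC tumour replicates 1 and 2), 459 to 554 and 88 to 120 in BEC tumour against BEC normal, and 0 to 1 and 1 to 2 with 12-HETE. The lncRNA share was 0.519%, 0.796%, 0.915% and 1.14% by longest transcript and 0.359%, 0.604%, 0.730% and 0.871% without overlapping genes (BEC normal, BEC tumour, HEC normal, HEC tumour). Same-numbered libraries deviated together with r from -0.009 to 0.127 in endothelial cells and from 0.0952 to 0.305 in EO771. Libraries of unlike number gave r from -0.176 to 0.119 and from -0.218 to 0.0504. In EO771 every same-numbered r lay above the others, whereas in endothelial cells the ranges overlapped. The labels state no pairing, so it was not established. With the replicate block, 1 lncRNA was higher with 12-HETE, and H19 was -1.91 in HEC normal against BEC normal (adjusted p = 0.0476, DESeq2). Genes under 10 in level, such as Meg3, were beyond this depth.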
